A study of Mus musculus with 24 samples.

Results

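The miRNA described here are 6 mature miRNA tied to the vessel wall, mmu-miR-126-3p, mmu-miR-126-5p, mmu-miR-143, mmu-miR-145, mmu-miR-221 and mmu-miR-222 (written without the mouse prefix from here on), taken by probe name from the 566 mouse miRNA of a NanoString nCounter panel. The nCounter counts single molecules by a coloured barcode, without amplification, after each miRNA has been ligated to a tag. The panel was run on plasma of 24 male C57BL/6J mice aged 20 weeks, 8 in each of 3 groups. Environmentally persistent free radicals (EPFR) are radicals stabilised on the surface of combustion particles. One group breathed filtered air, one breathed particles low in radicals (EPFR lo) and one breathed radical-rich particles (EPFR), both particle types at 250 µg/m3 according to the labels, for 4 h a day on 5 days. The methods of the study state a different particle concentration, and the difference could not be resolved here. Plasma was taken after the last exposure, and circulating and exosomal RNA was isolated together from 200 µL of it. Of this RNA 10 ng entered the assay. All mice were of 1 strain and carried no engineered allele. In a bulk plasma sample, release by fewer cells and less RNA released per cell cannot be told apart, and no label ties a plasma miRNA to the cell that released it.

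These miRNA are grouped by the vascular cell in which they are best known. miR-126 is the abundant endothelial miRNA, cut from an intron of Egfl7, a gene for a secreted endothelial factor. Its 3p strand is known for strengthening VEGF signalling through Spred1, and its 5p strand for acting on Dlk1 in endothelial repair. miR-143 and miR-145 are made from 1 primary transcript in smooth muscle and favour its contractile state. miR-221 and miR-222 are neighbours that share a seed, are known to restrain Kit in human endothelial cells and to favour growth of smooth muscle, in which they target the cell cycle inhibitor Cdkn1b.

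The sequences of miR-221 and miR-222 are shown because the partners share a seed and their plasma counts are compared below with each other and with another miRNA of the same seed. Capitals mark the seed, bases 2 to 8, which pairs with target mRNA. Sequences and positions are those of RefSeq for the mouse build GRCm38.p6, which matched 2 of the 6 members under the names printed here.
mmu-miR-221-3p: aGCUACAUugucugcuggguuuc
mmu-miR-222-3p: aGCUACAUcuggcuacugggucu
mmu-miR-1928: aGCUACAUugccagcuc

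The miR-221 sequence lies at chrX:19146307-19146329 and the miR-222 sequence at chrX:19146901-19146923, both on the minus strand, and their hairpins are 504 bases apart. No annotated gene contains either hairpin. Their first 8 bases are identical, and 11 of 23 positions match when the strands are aligned at the 5′ end without gaps. The third sequence, miR-1928 at chr1:74206562-74206578 on the minus strand, holds the same seed, which 3 mature mouse miRNA of the reference share. In the same annotation Mir126a lies within Egfl7 on chromosome 2, and Mir143 and Mir145a lie within Carmn, a long noncoding RNA gene of smooth muscle, on chromosome 18.

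Each mouse gave between 8418 and 30483 miRNA counts. The 8 negative-control probes, which have no target, read means of up to 29.0 counts over the 24 mice, and the 4 housekeeping probes read means of up to 17.9, within the range of the negative controls. Scaling by housekeeping probes, the scaling of the study's methods, therefore carried noise, and in 4 mice (mouse 2 of filtered air, with mice 1, 2 and 4 of EPFR lo) every housekeeping probe was at background and the scaling factor sat at its ceiling of 1.66. The ligation positive controls, which read how well tags were joined, stood 2.88-fold above filtered air after EPFR (exact permutation test of 8 against 8 mice, two-sided, p = 0.000622, 0.00932 adjusted over 15 tests of 5 technical measures). After EPFR lo they stood 1.98-fold above filtered air (exact p = 0.0634, adjusted 0.244). As the ligation level differed with exposure in EPFR against filtered air, the effects of exposure and ligation cannot be told apart there. A fit with the ligation level of each mouse as a covariate does not separate them. Replicates 1 to 4 of all groups had lower positive controls (6679 ± 614, SD, n = 12) than replicates 5 to 8 (8188 ± 653, n = 12), and values within each set are given where they bear on a result.

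Of the 6 members, miR-126-3p stood clear of background. A miRNA was taken as above background in a mouse when its raw count exceeded the mean plus 2 SD of that mouse's negative controls. miR-126-3p did so in 18 of 24 mice, 6 in each group, and ranked 22 of 566 miRNA by mean raw count. miR-145 did so in 2 mice and miR-143 in 1. miR-126-5p, miR-221 and miR-222 did so in 0 of 24 mice. Over all 566 miRNA, 41 had a mean count above the same limit computed over all mice, 34.1 counts. After the background subtraction behind the deposited normalized counts, the value sat at the floor in 23 of 24 mice for miR-221, in 20 for miR-126-5p, in 19 for miR-222, in 10 for miR-143, in 8 for miR-145 and in 0 for miR-126-3p. The tests below therefore use raw counts with a scaling factor per mouse and no subtraction, so a change in a probe near background is diluted by counts that do not come from its target.

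**Figure D1:**
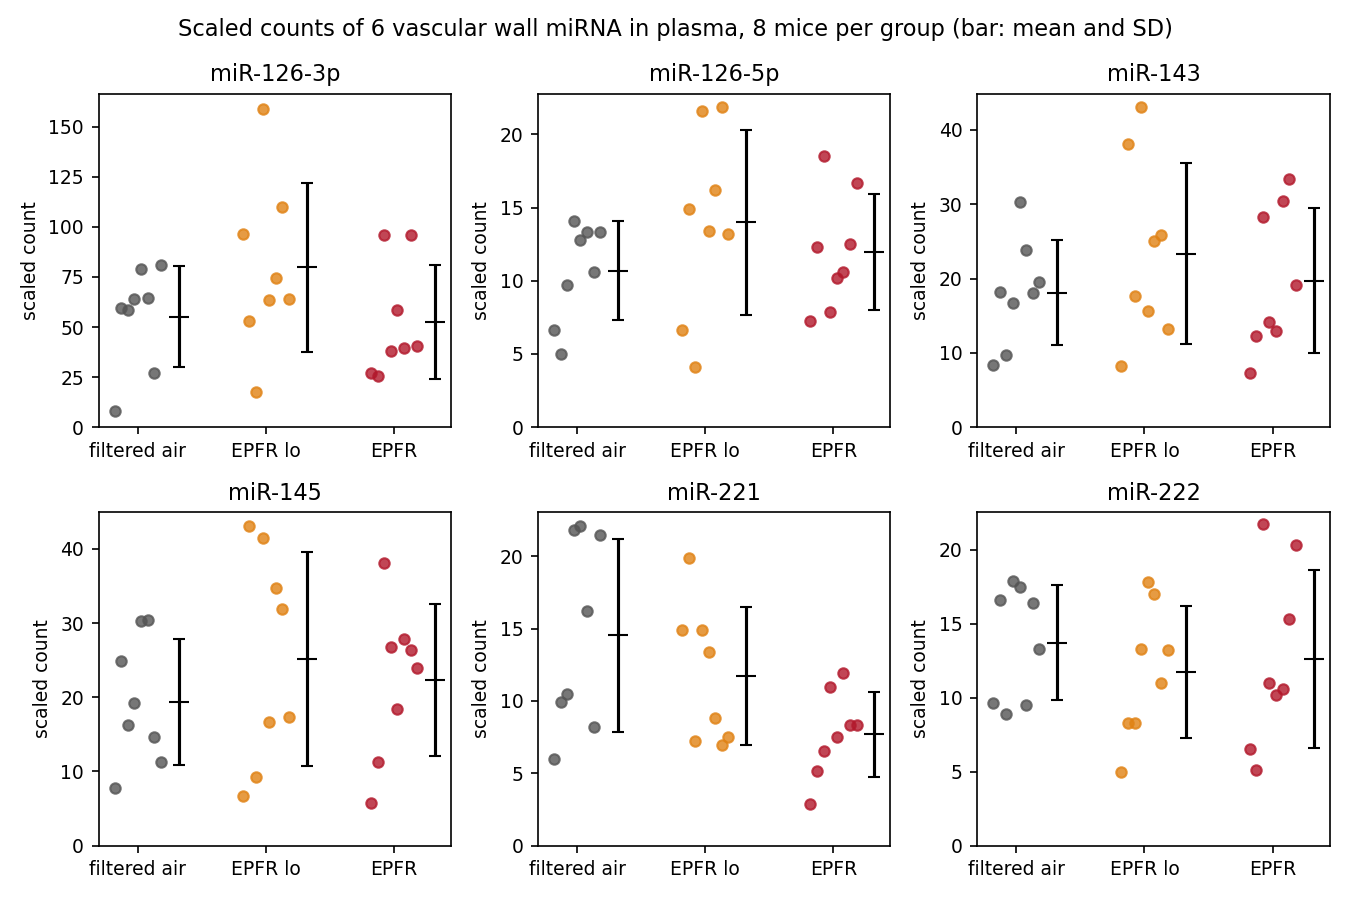
Scaled counts (raw count times the housekeeping and positive-control factor of the mouse) of the 6 miRNA, 1 point per mouse, 8 mice per group, with mean and SD as bars and a separate axis from 0 in each panel. Groups overlap in all 6 panels, and all 8 EPFR mice lie at or below 11.9 scaled counts in the miR-221 panel.

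miR-126-3p, the main endothelial strand, read 13 to 79 raw counts after filtered air (median 59), 17 to 111 after EPFR lo (median 77) and 24 to 88 after EPFR (median 35.5). The groups overlapped widely. The EPFR median was the lowest although no EPFR mouse was as low as filtered air mouse 1. After scaling the means were 55.2 ± 25.3 (SD, n = 8) after filtered air, 79.7 ± 42.4 after EPFR lo and 52.6 ± 28.5 after EPFR. The variance of the raw counts was 10.3 to 18.5 times the mean within groups, where counting error alone gives 1. Total counts also differed between mice, which adds to this variance. EPFR against filtered air gave a log2 fold change of -0.06 (SE 0.35, 95% interval -0.76 to 0.63, edgeR adjusted p = 0.991), whose sign turned with positive-control (0.05), TMM (0.08) and DESeq2 (0.09) scaling. EPFR lo against filtered air gave 0.53 (SE 0.35, interval -0.16 to 1.22, adjusted p = 1), and 0.28 without the 4 mice whose housekeeping probes were at background. The highest scaled value of EPFR lo, 159, belonged to 1 of those mice, EPFR lo mouse 4, whose raw count of 96 was below those of EPFR lo mice 6, 7 and 8. EPFR against EPFR lo gave -0.60 (SE 0.35, interval -1.29 to 0.10, adjusted p = 0.955). The EPFR lo median was exceeded by 2 of 8 EPFR mice.

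miR-126-5p, the other strand of the precursor, read 3 to 14 raw counts after filtered air (median 11.5), 4 to 23 after EPFR lo (median 12.5) and 5 to 17 after EPFR (median 11). Its medians were nearly level, and it lay below the negative-control geometric mean of the same mouse in 19 of 24 mice. The log2 fold changes were 0.16 (SE 0.34) in EPFR against filtered air, 0.39 (SE 0.33) in EPFR lo against filtered air and -0.23 (SE 0.33) in EPFR against EPFR lo. None passed the edgeR test (adjusted p = 0.991, 1 and 0.955). The first 2 signs turned with the scaling to the 100 highest miRNA, at -0.06 and -0.03. The log2 ratio of 3p over 5p counts within mice had a median of 2.35 after filtered air, 2.19 after EPFR lo and 1.92 after EPFR. This ratio carries the binding efficiency of each probe and is compared between groups only. It differed by -0.14 in EPFR against filtered air (SE 0.39, exact permutation p = 0.731), by 0.27 in EPFR lo against filtered air (SE 0.39, exact p = 0.512) and by -0.41 in EPFR against EPFR lo (SE 0.30, exact p = 0.193), within the spread among mice. With background subtracted these values were -0.29, -0.44 and 0.15. As miR-126-5p was above background in 0 of 24 mice, the ratio cannot show whether the RNA of the strands differed in response.

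miR-143 read 11 to 26 raw counts after filtered air (median 16.5), 5 to 34 after EPFR lo (median 23) and 9 to 26 after EPFR (median 17.5). EPFR lo held both the lowest and the highest mouse, and the ranges of the other groups lay inside its range. Its smooth muscle partner miR-145 read 11 to 32 after filtered air (median 16.5), 4 to 47 after EPFR lo (median 25.5) and 8 to 35 after EPFR (median 19.5). The same pattern held, with EPFR lo mouse 1 lowest and EPFR lo mouse 6 highest for both miRNA. Scaled means were 18.1 ± 7.05, 23.4 ± 12.2 and 19.7 ± 9.72 for miR-143 (filtered air, EPFR lo, EPFR; SD, n = 8). For miR-145 they were 19.4 ± 8.46, 25.1 ± 14.4 and 22.3 ± 10.2.

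Neither smooth muscle miRNA passed the test in any comparison. EPFR against filtered air gave log2 fold changes of 0.12 (SE 0.31, 95% interval -0.50 to 0.73) for miR-143 and 0.20 (SE 0.31, interval -0.41 to 0.82) for miR-145, both with edgeR adjusted p = 0.991. EPFR lo against filtered air gave 0.36 (SE 0.31) and 0.39 (SE 0.31), both with adjusted p = 1. All 4 signs turned with the scaling to the 100 highest miRNA, at -0.13 and -0.04 in EPFR and -0.05 and -0.01 in EPFR lo. On the deposited subtracted counts the values were larger, 0.40 (SE 0.57) and 0.72 (SE 0.60) in EPFR and 0.67 and 0.91 in EPFR lo, with wider errors (limma on log2(value + 1), adjusted p = 0.858 in EPFR and 0.717 in EPFR lo). EPFR against EPFR lo gave -0.25 and -0.19 (SE 0.31 each, adjusted p = 0.955). In replicates 5 to 8 alone miR-143 in EPFR lo against filtered air was -0.19, against 1.05 in replicates 1 to 4. The difference between the sets was not tested.

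In the fits of raw counts that held all 6 members miR-221 had the largest log2 difference of the 6 members between EPFR and filtered air, and on the deposited subtracted counts the smallest, -0.02. Its raw counts were 6 to 21 after filtered air (median 15), 7 to 13 after EPFR lo (median 10.5) and 4 to 11 after EPFR (median 6.5). Filtered air mice 4, 5, 6 and 8 read 17 to 21, above every EPFR lo and EPFR mouse, while filtered air mice 1, 2, 3 and 7 read 6 to 13, within the range of the exposed mice. Summed over 8 mice these were 113 counts after filtered air (exact Poisson 95% interval 93.1 to 136), 81 after EPFR lo (64.3 to 101) and 55 after EPFR (41.4 to 71.6), intervals that cover counting error only. In EPFR lo and EPFR the variance of the raw counts was 0.577 and 0.725 times the mean, no more than counting gives, and in filtered air it was 1.91 times the mean. Scaled means were 14.5 ± 6.68 after filtered air, 11.7 ± 4.76 after EPFR lo and 7.71 ± 2.94 after EPFR (SD, n = 8).

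Between EPFR and filtered air miR-221 had a log2 fold change of -0.93 (SE 0.35, 95% interval -1.61 to -0.25, edgeR adjusted p = 0.433 over the 566 miRNA). It did not pass the threshold of an adjusted p of 0.05. All 8 EPFR mice lay below the filtered air median, a pattern that 1.94% of all miRNA showed (11 of 566, all mice of EPFR at or under the filtered air median). The exact permutation test of 8 against 8 mice gave p = 0.0232, and 0.417 adjusted over the 18 member tests. The value was -0.95 in replicates 1 to 4 (adjusted p = 0.994) and -0.91 in replicates 5 to 8 (adjusted p = 0.997), and it ran from -1.07 to -0.78 when each mouse was left out in turn (adjusted p = 0.154 to 0.902). The direction was known from earlier results of these same mice and is not independent evidence.

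The call on miR-221 rested on the scaling. It fell with TMM scaling (-0.85, edgeR adjusted p = 0.0266), with positive-control scaling (-0.87, adjusted p = 0.0498) and with scaling to the 100 highest miRNA (-1.12, adjusted p = 0.0082), and did not pass with the housekeeping scaling of the methods. The last scaling shifted the median of all 566 miRNA to -0.295, against -0.0854 with housekeeping scaling. DESeq2 gave -0.85 and no adjusted p for this low count. The deposited background-subtracted counts gave -0.02 (limma, adjusted p = 0.898), as nearly all of their miR-221 values sit at the floor. With the ligation level of each mouse as a covariate the value was -0.84 (SE 0.44, adjusted p = 0.994). That level differed between EPFR and filtered air, which widens the error of this fit.

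**Figure D2:**
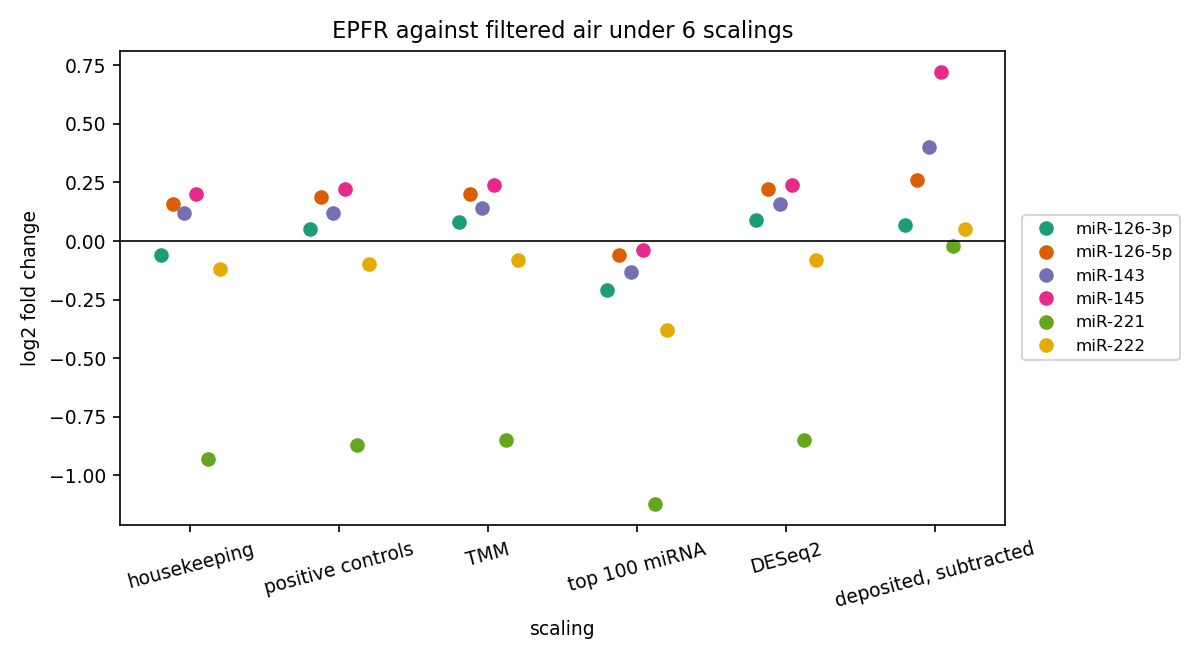
Log2 fold change of the 6 miRNA in EPFR against filtered air (vertical axis) under 6 scalings, 1 colour per miRNA. miR-221 lies between -1.12 and -0.85 in 5 scalings of the raw counts and at -0.02 in the deposited subtracted counts, while the other 5 miRNA lie between -0.38 and 0.24 in the raw-count scalings.

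The negative controls of each group are given beside miR-221 because its counts lie near them. Their geometric mean was 16.3 counts after filtered air, 16.4 after EPFR lo and 13.5 after EPFR, a log2 difference of -0.27 between EPFR and filtered air (exact permutation p = 0.065, adjusted 0.244). miR-221 lay below the negative-control mean of its own mouse in 8 of 8 EPFR mice, 8 of 8 EPFR lo mice and 5 of 8 filtered air mice. Relative to that mean within each mouse, a comparison chosen after seeing the data, miR-221 was still -0.63 on the log2 scale in EPFR against filtered air (exact permutation p = 0.00684, 0.123 adjusted over 18 tests). It was -0.40 in EPFR lo (exact p = 0.0622, adjusted 0.559). What part of the miR-221 count came from its target was not tested.

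**Figure D3:**
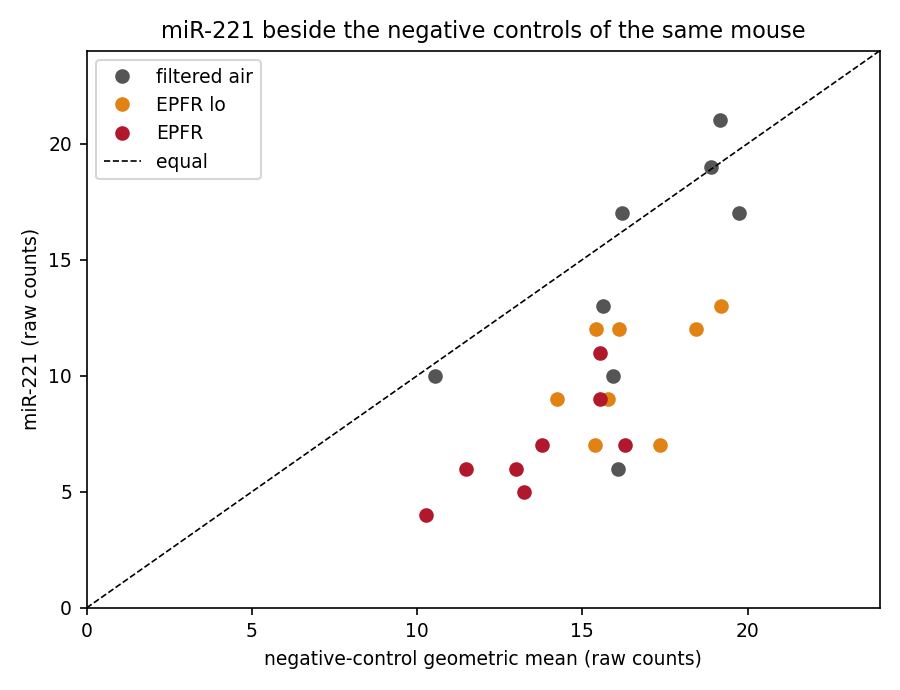
Raw miR-221 count (vertical axis) against the geometric mean of the negative controls of the same mouse (horizontal axis, raw counts), 24 mice coloured by group, with the line of equal values dashed. All 16 mice of EPFR lo and EPFR lie below the line, as do 5 of the 8 filtered air mice.

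EPFR lo lay between the other groups in miR-221, without a step that passed the test. EPFR lo against filtered air gave -0.35 (SE 0.33, 95% interval -1.01 to 0.30, edgeR adjusted p = 1), and EPFR against EPFR lo gave -0.58 (SE 0.36, interval -1.29 to 0.13, adjusted p = 0.955; exact permutation p = 0.0659). The place of EPFR lo depended on the replicate set. It was 0.25 against filtered air in replicates 1 to 4 and -0.89 in replicates 5 to 8, and EPFR against EPFR lo was -1.20 and -0.02 in the same sets. Without the 4 mice whose housekeeping probes were at background, EPFR lo against filtered air was -0.75 and EPFR against EPFR lo was -0.23.

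miR-222, which shares the seed of miR-221, read 10 to 20 raw counts after filtered air (median 13.5), 3 to 23 after EPFR lo (median 9.5) and 5 to 20 after EPFR (median 10). Its groups overlapped over nearly the whole range, and EPFR mouse 3 read as high as the highest filtered air mouse. Scaled means were 13.7 ± 3.87, 11.7 ± 4.46 and 12.6 ± 6.04 in filtered air, EPFR lo and EPFR (SD, n = 8). The log2 fold changes were -0.12 (SE 0.33, 95% interval -0.77 to 0.53) in EPFR against filtered air, -0.16 (SE 0.33) in EPFR lo against filtered air and 0.04 (SE 0.34) in EPFR against EPFR lo, with edgeR adjusted p = 0.991, 1 and 0.993.

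The seed partners were also compared within mice, by counts that exceeded the background limit in 0 of 24 mice for either miRNA. The log2 ratio of miR-222 over miR-221 had a median of -0.24 after filtered air (range -0.71 to 0.93), 0.28 after EPFR lo (-1.32 to 0.89) and 0.60 after EPFR (-0.15 to 1.58). EPFR mice stood higher as a group, with overlap. Against filtered air the ratio was 0.59 higher in EPFR (SE 0.32, exact permutation p = 0.0838, 0.580 adjusted over 9 ratio tests), 0.57 higher in EPFR against EPFR lo (SE 0.37, exact p = 0.150) and 0.02 higher in EPFR lo against filtered air (SE 0.37, exact p = 0.955). With background subtracted the value in EPFR against filtered air was -0.06, so the test cannot show whether the RNA of the partners differed in response. miR-1928, named for the shared seed and outside the naming rule, read 18.1 ± 5.19 scaled counts after filtered air, 23.1 ± 6.81 after EPFR lo and 18 ± 7.42 after EPFR, with a log2 fold change of -0.04 (SE 0.31) in EPFR against filtered air.

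**Figure D4:**
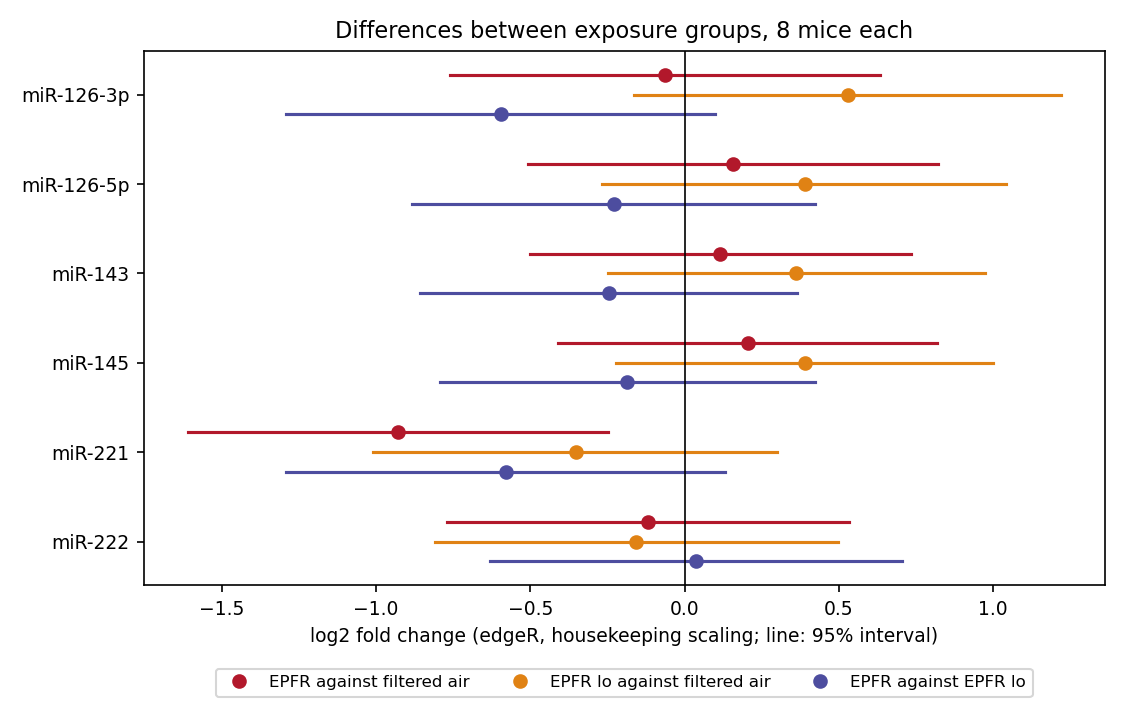
Log2 fold change (point) and 95% interval (line) of the 6 miRNA in 3 comparisons of 8 against 8 mice, from edgeR with housekeeping scaling. The interval of miR-221 in EPFR against filtered air, -1.61 to -0.25, is the only 1 of the 18 that leaves out 0.

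Read against the whole panel, the members did not stand out by number. In EPFR against filtered air 0 of 6 members passed an adjusted p of 0.05 in edgeR, where 0.707% of all miRNA did (4 of 566, all higher). At an unadjusted p under 0.05, 1 of 6 passed, miR-221, against 5.12% of all miRNA (29 of 566), of which 3.89% were higher and 1.24% lower. In EPFR lo against filtered air 0 of 6 passed either threshold, against 0.707% (4 of 566) and 4.59% (26 of 566, 4.42% higher). In EPFR against EPFR lo 0 of 6 passed either, against 0.177% (1 of 566) and 2.47% (14 of 566, with 0.530% higher and 1.94% lower). All mice of the first group at or under the median of the second were seen for 0 of 6 members in these 2 comparisons, against 0.530% and 3.36% of all miRNA. DESeq2 called 0 members in the 3 comparisons, and gave no adjusted p for most of them in EPFR and EPFR lo against filtered air. Other scalings moved the split of the panel. In EPFR against filtered air 5 miRNA were higher and 1 lower with TMM, 2 and 1 with positive-control scaling, and 5 and 5 with top 100 scaling. In EPFR lo against filtered air 5 were higher and 1 lower with TMM, and 4 and 8 with top 100 scaling, which shifted the median of all miRNA to -0.304. The median log2 fold change of the members was 0.03 in EPFR, beside -0.09 over all miRNA, 0.38 in EPFR lo, beside 0.11, and -0.24 between EPFR and EPFR lo, beside -0.18. Both exposures were set against the same filtered air mice, so their values are not independent. By the 18 exact permutation tests, unadjusted p ran from 0.0659 to 0.973 outside miR-221 in EPFR against filtered air, and the smallest p that 12870 regroupings allow is 0.000155.

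Correlations of cluster partners over mice were each tested against 0, and differences between the 3 pairs were not tested. All miRNA of a mouse share its scaling factor, so a positive correlation is common across the panel. The median Spearman rho with 565 other miRNA was 0.463 for miR-143, 0.387 for miR-145, 0.357 for miR-126-3p and 0.270 for miR-126-5p, and 0.110, 0.130, 0.0896 and 0.117 with positive-control scaling. miR-143 and miR-145 had Pearson r = 0.848 over the 24 mice on log2 scaled counts (permutation p = 1e-05, the smallest that 100000 resamples give, 3e-05 adjusted over 3 pairs; Spearman rho = 0.824, permutation p = 1e-05). The value was 0.741 within filtered air, 0.904 within EPFR lo and 0.851 within EPFR, 0.879 and 0.684 within replicates 1 to 4 and 5 to 8, and 0.799 without the 2 mice farthest from the median. It was 0.781 with positive-control and 0.725 with TMM scaling, although both miRNA lie near background in most mice. miR-126-3p and miR-126-5p had r = 0.605 (permutation p = 0.00167, adjusted 0.0025; rho = 0.580, permutation p = 0.00347), 0.443 without the 2 farthest mice, 0.492, 0.744 and 0.535 within the groups, and 0.580 and 0.516 within the replicate sets. With TMM scaling it was 0.39 and no longer passed (adjusted p = 0.0891). As miR-126-5p was above background in 0 of 24 mice, this r could not show whether the RNA of the strands moved together.

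For miR-221 and miR-222, above background in 0 of 24 mice each, r could not show whether the RNA moved together. Their r was 0.236 (permutation p = 0.265; rho = 0.235, permutation p = 0.267), with 0.384 among filtered air mice, -0.248 among EPFR lo mice and 0.470 among EPFR mice, 0.274 and 0.0307 in the replicate sets, and 0.253 without the 2 farthest mice. With TMM scaling it was -0.10. Within-mouse ratios of miR-143 over miR-145 differed by -0.08, 0.04 and -0.12 in the 3 comparisons (exact permutation p = 0.705, 0.854 and 0.572), within the spread among mice.

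**Figure D5:**
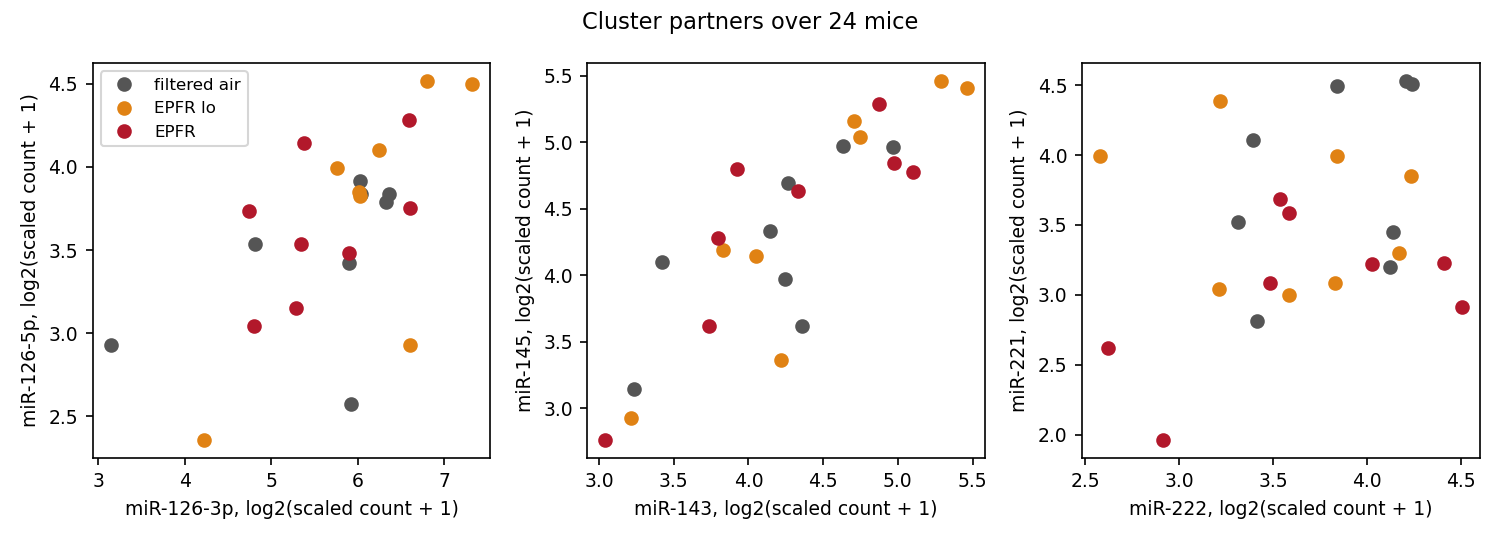
Log2(scaled count + 1) of cluster partners against each other, 24 mice coloured by group, miR-126-5p over miR-126-3p, miR-145 over miR-143 and miR-221 over miR-222. Pearson r is 0.848 for miR-143 and miR-145, 0.605 for the miR-126 strands and 0.236 for miR-221 and miR-222. All of these except miR-126-3p lie near background in most mice.

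The miRNA most alike to each member over the 24 mice, by Spearman rho on log2 scaled counts, are given as a description, since all points share the scaling factor of the mouse. miR-126-3p was most like miR-199a-3p (0.813) and let-7c (0.809), where the median over 565 other miRNA was 0.357, and its own 5p strand came 39th. miR-143 and miR-145 were first in each other's lists of 565, followed by miR-206 for miR-143 (0.817) and by miR-720 for miR-145 (0.761). miR-126-5p was most like miR-1224 (0.754) and miR-1193 (0.739). miR-222 was most like miR-194 (0.639) and miR-1954 (0.587), and miR-221 came 320th in its list. miR-221 was most like miR-1191 (0.818) and miR-669e (0.813), and miR-222 came 526th. For miR-221 these values were 0.445 and 0.403 with positive-control scaling, and the median over 565 miRNA went from 0.508 to 0.0783.

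Other miRNA known in vascular cells were listed as 27 of endothelium and angiogenesis, 24 of them measured, and 20 of smooth muscle and fibroblasts. Most of them lay near background. Of the 24 endothelial miRNA 15 in each group had means at or under the negative-control geometric mean and 6 had means above the limit of 34.1 counts, as had 6 of the 20 smooth muscle miRNA. In EPFR against filtered air 0 of the 24 endothelial miRNA passed the adjusted test, beside 0.707% of all miRNA. Of the 24, 7 were positive, beside 210 of all 566 miRNA. The median log2 fold change of the list in EPFR was -0.12, beside -0.09 over all miRNA. In EPFR lo the median of the list was 0.19, beside 0.11 over all miRNA. There 1 of 24 rose, beside 0.707% of all miRNA. It was miR-23a, an angiogenic miRNA of the miR-23/27/24 cluster, at 1.34 (SE 0.37, edgeR adjusted p = 0.0428). Leaving out a single mouse ended its call for 13 of 24 mice (1.20 to 1.48, adjusted p = 0.0175 to 0.226). It also lost the call with the ligation covariate (0.82, adjusted p = 0.993) and with the filter on low counts (adjusted p = 0.0564). Without the 4 mice whose housekeeping probes were at background it was 1.43 (edgeR adjusted p = 0.369). It failed as well in replicates 1 to 4 and 5 to 8 alone (edgeR adjusted p = 0.373 and 0.270) and with limma on the deposited counts. Of the smooth muscle and fibroblast list 1 of 20 rose in EPFR, miR-1, a miRNA of striated muscle that also acts in smooth muscle, at 1.98 (SE 0.36, adjusted p = 2.66e-05), with scaled means of 83.7 ± 138 against 21.5 ± 8.49 in filtered air. It lost its call without EPFR mouse 3 (0.72, adjusted p = 0.994), in replicates 5 to 8 alone (0.68, adjusted p = 0.997), in the fit blocked on replicate number (1.17, adjusted p = 0.106) and with the ligation covariate (1.76, adjusted p = 0.0734). With limma on the deposited counts miR-1 did not pass either (pseudocount 1, adjusted p = 0.348). In EPFR lo 0 of the 20 passed the adjusted test, beside 0.707% of all miRNA. The list's medians were 0.18 in EPFR and 0.29 in EPFR lo, beside -0.09 and 0.11 over all miRNA. Of the 20, 16 were positive in EPFR and 19 in EPFR lo, beside 210 and 389 of all 566. Between EPFR and EPFR lo 0 members of either list passed the adjusted test, beside 0.177% of all miRNA. At an unadjusted p under 0.05, 1 and 4 members of the 2 lists were higher in EPFR, 1 and 5 in EPFR lo and 0 and 1 in EPFR against EPFR lo, and 0 were lower. Over all 566 miRNA 3.89% were higher at that threshold in EPFR, 4.42% in EPFR lo and 0.530% in EPFR against EPFR lo. These shares are set beside the lists as a description.

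Blood cell miRNA, which also reach plasma, had higher summed medians in both exposed groups than in filtered air, a description with no test of the sums. The same held for the endothelial list (499.3, 640.7 and 577 in filtered air, EPFR lo and EPFR) and the smooth muscle list (421.4, 548.8 and 568). The platelet and leukocyte lists share miRNA with both of these lists, so these sums are not independent. Summed medians in filtered air, EPFR lo and EPFR were 123.3, 150.1 and 137.7 for listed striated muscle miRNA. For liver they were 96.65, 177.7 and 97.89, and for epithelium 126.6, 161 and 127, nearly level between EPFR and filtered air. Whether the higher sums were particular to blood cells was not tested. Haemolysed plasma had been left out, according to the methods of the study. The summed scaled count of 4 red blood cell miRNA was 886.6 to 7795 after filtered air (median 2293), 3053 to 9873 after EPFR lo (median 5812) and 1538 to 11750 after EPFR (median 6705). Their median log2 fold change was 0.97 in EPFR and 0.95 in EPFR lo, with 0 of 4 past an adjusted p of 0.05. The sum of 7 platelet miRNA had medians of 203.1, 338.7 and 365.3 in filtered air, EPFR lo and EPFR, and that of 8 leukocyte miRNA 312.1, 480.9 and 495, with ranges that overlapped. Of the blood cell lists 1 member rose, miR-142-3p, beside 0.707% of all miRNA in each comparison with filtered air. This miRNA of blood cells stood at 1.69 in EPFR (SE 0.38, edgeR adjusted p = 0.00181) and 1.47 in EPFR lo (SE 0.38, adjusted p = 0.0306). It lost its call in EPFR without EPFR mouse 8 (1.31, adjusted p = 0.0641), in EPFR lo without any 1 of 10 mice, and in both with the ligation covariate (0.90 and 0.91, adjusted p = 0.994 and 0.993). In both it also failed with positive-control scaling (edgeR adjusted p = 0.0641 and 0.0842), in replicates 1 to 4 alone (0.785 and 0.266) and with limma on the deposited counts. In EPFR lo it failed in replicates 5 to 8 alone (edgeR adjusted p = 0.221) and with the filter on low counts (0.0603). The same held there without the 4 mice whose housekeeping probes were at background (0.369). Human platelets are also known to carry miR-126 and miR-221, and the part of platelets in the members' counts was not tested.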

How the data were processed

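Plasma miRNA of 24 mice (3 groups of 8, from the sample titles) was read on the nCounter. The authors deposited raw counts per probe, unscaled, and normalized counts (a signal), for which nSolver removed each mouse's negative-control geometric mean and then scaled to positive controls and housekeeping genes. These steps, rebuilt here, gave 13584 of 13584 normalized values within 2%. A deposited table of the authors' fold changes and p-values was not used. Raw counts of 566 miRNA were fitted with the quasi-likelihood F test of edgeR 4.0.16 under R 4.3.3 in 1 model of 24 mice, group only, with the positive-control and housekeeping factor as scaling, no filter, and Benjamini-Hochberg adjustment per comparison. Permutation tests were two-sided, on log2(scaled count + 1) for single members and correlations. The ratio tests used the log2 ratio of raw counts, each + 1. Tests relative to the negative controls used the log2 ratio of raw count + 1 to their geometric mean. Tests of technical measures used log2 of each measure. DESeq2 1.42.0, limma 3.58.1 and other scalings, filters and subsets were alternatives, as was leaving out each mouse. The edgeR step was also run on simulated data, and its error rate and power there are not given here. The lowest chi-square per degree of freedom between mice of a group was 1.15, and no library was counted as a repeat. Named miRNA were the 6 members, up to 2 miRNA per list with the smallest p in EPFR against filtered air, and the 2 most alike to each member. Members and lists were chosen with earlier results of these data known.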

Additional observations from a re-analysis of the deposited data

How the results depend on the processing

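Members called in EPFR against filtered air, 0 with housekeeping scaling, were 1 (miR-221) with TMM, positive-control and top 100 scaling, and 0 members were called in the other comparisons under any setting run. The filter on low counts kept only miR-126-3p of the 6. miRNA called in EPFR against filtered air, 4, were 10 with top 100 scaling, 7 with replicate sets as a block, 1 in replicates 1 to 4, 18 with DESeq2 and 0 with the ligation covariate or limma on the deposited counts (pseudocount 1 or 10). Those in EPFR lo against filtered air, 4, were 2 with positive-control scaling, 12 with top 100, 7 with the sets as a block, 1 in replicates 1 to 4, 13 with DESeq2, 1 with the ligation covariate, and 0 with the filter, in replicates 5 to 8, without the 4 mice whose housekeeping probes were at background and with limma. In EPFR against EPFR lo, 1, they were 0 in the fit of 2 groups, in either replicate set, without those 4 mice and with limma. Leaving out each mouse gave 2 to 9, 1 to 10 and 0 to 1 calls.

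Deviations of same-numbered mice of different groups correlated weakly (9 of 24 pairs with r above 0.1, range -0.0918 to 0.282). Differently numbered mice were not compared in this way, so whether the numbers pair mice was not tested. With the replicate number as a block, 2 miRNA were called in EPFR and 7 in EPFR lo, and 0 members.

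Signs of log2 fold changes that turned, none of them past the test on either side, follow by setting. In EPFR against filtered air miR-126-3p was 0.05 with positive-control scaling, 0.08 with TMM, 0.09 with DESeq2, 0.07 with limma and 0.17 relative to the negative controls, an alternative chosen after seeing the data. With top 100 scaling miR-126-5p, miR-143 and miR-145 were -0.06, -0.13 and -0.04 in EPFR and -0.03, -0.05 and -0.01 in EPFR lo. With the ligation covariate they were -0.23, -0.18 and -0.22 in EPFR. With limma on the deposited counts (pseudocount 1, then 10) miR-222 was 0.05 and 0.04 in EPFR, 0.10 and 0.03 in EPFR lo, and -0.05 (pseudocount 1) in EPFR against EPFR lo, and miR-221 was 0.01 and 0.00 in EPFR lo. Relative to the negative controls miR-126-5p, miR-143 and miR-145 were 0.18, 0.08 and 0.21 in EPFR against EPFR lo. In replicates 1 to 4 miR-126-5p was 0.01 in EPFR against EPFR lo and miR-221 was 0.25 in EPFR lo. In replicates 5 to 8 miR-126-5p was -0.01 in EPFR, miR-143 -0.19 in EPFR lo and 0.22 in EPFR against EPFR lo, and miR-222 0.06 and -0.09 in the same comparisons. Without the 4 mice named above miR-222 was 0.04 and -0.12 in these. Leaving out each mouse, miR-126-3p ran from -0.25 to 0.04, miR-143 from -0.03 to 0.26 and miR-222 from -0.28 to 0.00 in EPFR, and miR-222 from -0.13 to 0.16 in EPFR against EPFR lo.

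Of the within-mouse ratios, with background subtracted, miR-126-3p over miR-126-5p was -0.44 in EPFR lo and 0.15 in EPFR against EPFR lo, miR-143 over miR-145 -0.20 in EPFR lo, and miR-222 over miR-221 -0.06 in EPFR and -0.22 in EPFR against EPFR lo. With a pseudocount of 10 miR-143 over miR-145 was -0.01 in EPFR lo. In replicates 1 to 4 it was 0.09 in EPFR, and miR-222 over miR-221 was -0.80 in EPFR lo. In replicates 5 to 8 miR-143 over miR-145 was -0.47 in EPFR lo and 0.22 in EPFR against EPFR lo, and miR-222 over miR-221 -0.11 in the latter. Leaving out each mouse, miR-126-3p over miR-126-5p ran from -0.40 to 0.02 in EPFR, miR-143 over miR-145 from -0.17 to 0.03, -0.09 to 0.15 and -0.19 to 0.00 in the 3 comparisons, and miR-222 over miR-221 from -0.10 to 0.21 in EPFR lo. The correlation of the miR-126 strands was 0.39 and that of miR-222 with miR-221 -0.10 with TMM scaling. The cause of these moves was not tested. Of 5 members whose mean count is below 34.1, a change in the target RNA is only partly visible in the count.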
